A study of Mus musculus with 157 samples.

Results

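The mRNA carried by ribosomes was compared between etoposide-treated B cells that had been given an inhibitor of the kinase ATM and etoposide-treated B cells that had not. The samples were taken by treatment: all libraries from sucrose gradient fractions 4 to 16 of both etoposide groups, which made 104 of the 157 libraries of the series, or 13 fractions in each of 8 gradients. Splenic B cells of C57BL/6Babr mice, isolated with a magnetic kit, were cultured with lipopolysaccharide (LPS, a bacterial product that activates B cells) at 10 µg/ml, and all groups carried this stimulus. In the group named LPS+ET the cells had 48 h of LPS and then etoposide at 20 µM for 4 h. In the group named LPS+ET+KU they had 47 h of LPS, then the ATM inhibitor KU55933 (written KU59933 in part of the labels) at 10 µM for 1 h, and then the same etoposide treatment. A further 52 libraries came from cells kept in LPS alone for 48 h, which are given beside the results for orientation and shared the estimate of the spread. No group received the inhibitor without etoposide, so an effect of the inhibitor on damaged cells and an effect on LPS-activated cells as such cannot be told apart. Each treatment had 4 gradients, described as biological replicates, and each gradient belonged to 1 of 4 library pools with the tags LUL15, LUL16, LUL17 and LUL18.

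Etoposide keeps topoisomerase II bound to the DNA it has cut, so that breaks of both strands remain. ATM is the kinase that answers such breaks: it phosphorylates the checkpoint kinase Chk2, the histone H2AX, p53 and the p53 inhibitor Mdm2, and p53 then switches on genes for cell cycle arrest, DNA repair, apoptosis and its own restraint. In B cells ATM is also known for its part in the repair of breaks that arise while antibody genes are rearranged, and broken DNA can start NF-kB and interferon signalling. KU55933 competes with ATP at the kinase site of ATM.

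For each gradient the counts of its 13 fractions were added up, and the sum is called ribosome-associated mRNA. Total mRNA was not set beside it here, so a change of total mRNA and a change of ribosome association cannot be told apart. Fractions 4 to 7 held monosomes, 8 to 10 light polysomes and 11 to 16 heavy polysomes, per the labels. Gradient totals ran from 6404957 to 12884362 counts in LPS+ET gradients and from 8913999 to 21449781 in LPS+ET+KU, and single libraries from 32104 to 4170688. Monosome fractions supplied 12.6, 29, 10.9 and 13% of the counts in the LPS+ET gradients of LUL15, LUL16, LUL17 and LUL18, and 30.3, 28.5, 31.8 and 34% in LPS+ET+KU. The LPS+ET gradient of LUL16 stood apart from the other 3, with the smallest total and with 30.4% of its counts in heavy polysomes against 60.6 to 68.2%. The mean monosome share was 16.4 ± 8.48% (SD, n = 4) in LPS+ET against 31.2 ± 2.36% in LPS+ET+KU, a difference of 14.8 percentage points that was higher in 3 of 4 pools (two-sided exact permutation p = 0.0571, where 0.0286 is the smallest possible). The difference was 19.9 without the pool LUL16. Flipping signs within pools gave an exact p of 0.25, where 0.125 is the smallest possible. The heavy share was 56.0 ± 17.3% and 46.9 ± 8.08% (exact permutation p = 0.371, and 0.25 within pools). The difference moved from -9.11 to -14.5 percentage points without that pool. The light share was 27.6 ± 9.01% and 21.9 ± 10.1%. It was lower with the inhibitor in all 4 pools, with a mean difference of -5.68 percentage points (exact permutation p = 0.4, and 0.125 within pools). The difference in light share was -5.37 without the pool LUL16, and -1.36 when only the LPS+ET gradient of that pool was left out. Each library was made from the same concentration of RNA, so these shares do not measure how much mRNA a class held. They set how much each class weighs in the sum, and an alternative that gave each fraction equal weight stands beside the gene lists below. The defining B cell markers were present in every gradient: 10 of 10 were detected, with a summed level of 1909 to 2576 CPM (counts scaled to a common library size) in LPS+ET against 2111 to 3256 in LPS+ET+KU.

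**Figure D1:**
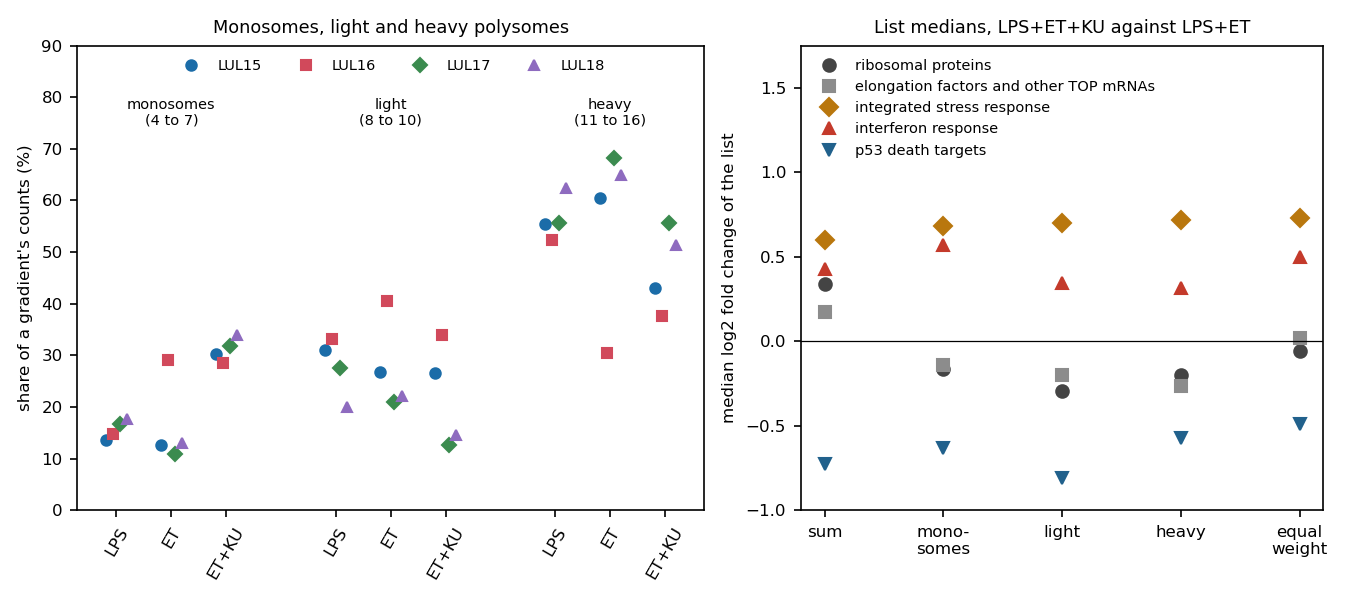
Left, share of a gradient's counts (percent) from monosome, light polysome and heavy polysome fractions, 1 point per gradient of LPS, LPS+ET (ET) and LPS+ET+KU (ET+KU), with the pool given by symbol and colour. Right, median log2 fold change of LPS+ET+KU over LPS+ET of 5 gene lists described below, in the sum of fractions, in each class and with equal weight for each fraction. The monosome share of LPS+ET+KU lay between 28.5 and 34%, and that of LPS+ET between 10.9 and 13% but for LUL16 at 29%, and the ribosomal protein median was above 0 in the sum (0.34) and below 0 in each class (-0.16 to -0.29).

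With the ATM inhibitor, 811 of 12755 genes changed, or 6.36% of those tested: 353 rose (2.77%) and 458 fell (3.59%). A gene counted as changed when edgeR's quasi-likelihood test, with the pool as a block, gave it an adjusted p below 0.01 (the study used the same limit), and fold changes are LPS+ET+KU over LPS+ET on the log2 scale. The median log2 fold change was 0.94 among the rises and -0.99 among the falls, against 0.03 over all genes. Of the 811 genes, 801 moved in the same direction in all 4 pools, 143 rose by more than 1 on the log2 scale and 226 fell by more than 1. The gradients of both treatments did not overlap at 1093 genes (8.57% of all), 488 of them higher with the inhibitor (3.83%) and 605 lower (4.74%). In bulk material, fewer cells with an mRNA and less of it per cell cannot be told apart.

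The number of calls depended on the pairing and on single gradients. Without the pool block 58 genes were called (0.455%; 28 higher, 0.220%, and 30 lower, 0.235%), all of them among the 811. With equal weight for each fraction 315 were called (2.47%; 190 higher, 1.49%, and 125 lower, 0.980%), of which 228 were among the 811, and 810 of the 811 kept their sign. Leaving out the LPS+ET gradient of LUL15, LUL16, LUL17 or LUL18 gave 232, 1292, 262 and 187 calls. Leaving out the LPS+ET+KU gradient of LUL15, LUL17 or LUL18 gave 322, 237 and 238, and of LUL16 800. Without the whole pool LUL15, LUL16, LUL17 or LUL18 the count was 130, 2874, 118 and 86. The rule for named genes took 85 called genes. They were chosen by their call in these data, as the 811 were, so a kept sign was largely given by the choice. All 85 kept their sign in each of these fits, 40 stayed called without each of the 8 gradients, and 28 did so also without each of the 4 pools. Those 28 included Cxcl10, Ccrl2, Ifit1, Ccl5, Neurl3, Rsad2, Ifit3, Chac1, Ifit2, Gbp5, Dusp4, Ppp1r15a and Tsc22d3 among the rises, and Cdh23, Cyp4f39, Gal, Cnga3, Bpifb4, Notch3, Cav2, Ppp1r13l, Ldhb, Ddit4l, Ppm1d, Egr1, Sdc1 and Irf4 among the falls. Leaving out the LPS+ET gradient of LUL15, LUL16, LUL17 and LUL18 in turn took the call from 42, 4, 38 and 43 of the 85, and leaving out the LPS+ET+KU gradient from 31, 7, 38 and 40. The adjusted p of the 45 genes that lost their call at least once reached 0.0115 to 0.0578. The counted sites of the 104 genes of this rule lay in an untranslated exon in 90, past the annotated end in 11, in coding sequence in 2 (mt-Nd4 and mt-Nd1) and in an intron in 1 (Cdh23). Of the 85 genes 20 were called also without the block, and the others had adjusted p-values of 0.0116 to 0.426 there.

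**Figure D2:**
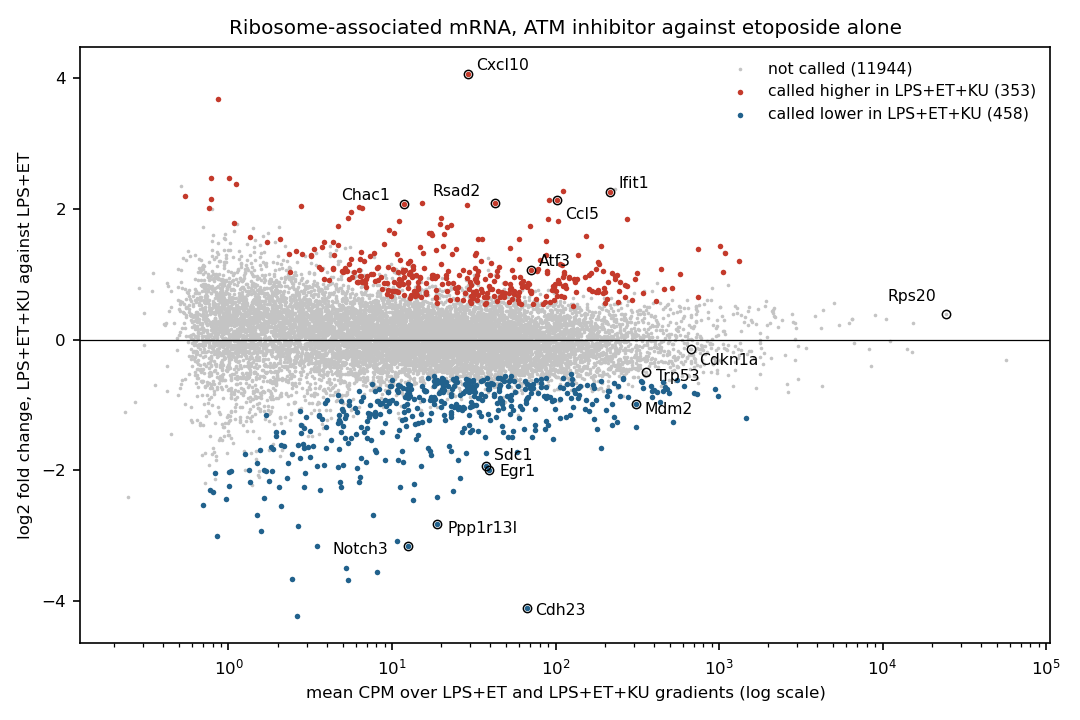
Log2 fold change of LPS+ET+KU over LPS+ET (vertical axis) against mean level (horizontal axis, CPM, log scale) for the 12755 genes tested, with the called genes in colour. The named genes with the largest changes are Cxcl10 at 4.07 and Cdh23 at -4.12.

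Members of the p53 pathway were lower with the inhibitor. The gene lists here and below were chosen with earlier results of these data known, so their shares describe the genes and test nothing. Over the 4 p53 lists (arrest, death, repair and metabolism, and regulators of p53) 16 of 56 genes fell and 0 rose, where 3.59% of all genes fell. The median log2 fold change was -0.48 in the arrest list, -0.73 in the death list, -0.68 in the repair and metabolic list and -0.50 among the regulators, against 0.03 over all genes. With equal weight for each fraction these medians were -0.37, -0.49, -0.30 and -0.42, and 6 of the 56 were called. Without the pool block 2 of them were called, Ppm1d and Ppp1r13l. Leaving out the LPS+ET gradient of LUL15, LUL16, LUL17 and LUL18 in turn gave 7, 20, 7 and 5 falls, leaving out the LPS+ET+KU gradient of the same pools gave 8, 14, 6 and 6, and leaving out both gave 4, 32, 4 and 3.

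Short windows of promoters are printed here because p53 acts by binding DNA: it recognises pairs of a palindromic 10-base half-site. The letters come from RefSeq promoters of GRCm38.p6, which span 250 bases before to 50 after the annotated start, and capitals mark a match to the half-site consensus, which reads alike on both strands.
Mdm2: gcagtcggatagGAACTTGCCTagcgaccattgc
Ppm1d: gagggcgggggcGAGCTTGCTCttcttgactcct
Ccng1: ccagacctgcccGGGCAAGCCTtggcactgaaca
Ddit4l: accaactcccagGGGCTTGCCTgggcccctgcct
Polk: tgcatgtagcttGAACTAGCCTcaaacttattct
The windows lie at chr10:117710923-117710956 on the minus strand (Mdm2), chr11:85311110-85311143 on the plus strand (Ppm1d), chr11:40755450-40755483 on the minus strand (Ccng1), chr3:137623570-137623603 on the plus strand (Ddit4l) and chr13:96519397-96519430 on the minus strand (Polk). A half-site stood in 9.55% of the 27025 promoters of the table and in 7.90% of those of the 8928 tested genes that the table holds. Of the 56 genes of the p53 lists 43 had a promoter there, and 15 of these held a half-site (34.9%), as did 6 of the 14 promoters of members that fell. So did 8 of the 37 promoters found for the tested genes of the interferon lists described below (21.6%), so the half-site was not particular to the p53 lists. A match is a string of letters and not a measured binding site.

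The regulators of p53 hold its inhibitors. Mdm2 (ENSMUSG00000020184, GRCm38 chromosome 10, 117688888 to 117710758), the ubiquitin ligase that degrades p53, stood at 419, 309, 467 and 444 CPM in the LPS+ET gradients of LUL15, LUL16, LUL17 and LUL18, an order kept for all such values below, and at 218, 128, 256 and 239 CPM in LPS+ET+KU. Every inhibitor gradient was below every gradient with etoposide alone, and Mdm2 fell by 0.98 ± 0.17 (SE) on the log2 scale (adjusted p = 0.00201). Its level in LPS alone was 77.7 ± 4.62 CPM (SD, n = 4). Ppm1d (ENSMUSG00000020525, chromosome 11, 85311244 to 85347066), the phosphatase Wip1 that removes the phosphates placed by ATM, stood at 72.8, 72.6, 72.7 and 71.1 CPM in LPS+ET against 34.2, 25.9, 39.1 and 32.4 CPM in LPS+ET+KU. The groups did not overlap and the log2 fold change was -1.15 ± 0.13 (adjusted p = 1.32e-04, and 0.00179 without the block). Ppp1r13l (ENSMUSG00000040734, chromosome 7, 19359749 to 19378533), which encodes iASPP, an inhibitor of p53, had 28.5, 19.7, 40.2 and 44.3 CPM in LPS+ET against 5.23, 2.77, 4.43 and 6.31 CPM in LPS+ET+KU, beside 1.402 ± 0.136 CPM in LPS. It had the largest fall of the regulators, -2.83 ± 0.18 (adjusted p = 2.87e-06, and 8.70e-04 without the block). Zfp385a, a p53 cofactor, went from 446 ± 146 to 178 ± 67.7 CPM, at a log2 fold change of -1.34 ± 0.24 (adjusted p = 0.00274). Mdm4, the partner of Mdm2, was the fifth regulator to fall, at a log2 fold change of -0.75.

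Among the arrest targets Zfp365, Ccng1 and Sesn2 fell and the other 11 of 14 did not pass the test. Zfp365, a p53 target linked to the stability of fragile DNA, stood at 102, 49.5, 72.04 and 65.1 CPM in LPS+ET against 49, 5.54, 32.03 and 32.3 CPM in LPS+ET+KU without overlap (log2 fold change -1.50 ± 0.29, adjusted p = 0.00451). Ccng1, the p53 target cyclin G1, ranged over 537 to 774 CPM and 213 to 545 CPM (log2 fold change -0.81 ± 0.18, adjusted p = 0.00841), and Sesn2, a brake on mTORC1, over 200.2 to 343 and 107 to 236 CPM (log2 fold change -0.79 ± 0.14, adjusted p = 0.00216). Both overlapped between treatments while being lower in every pool. Cdkn1a, the cell cycle inhibitor p21 and the best known arrest target, did not pass the test: it stood at 677, 502, 713 and 929 CPM in LPS+ET against 624, 392, 719 and 856 CPM in LPS+ET+KU, at a log2 fold change of -0.14 ± 0.14 (adjusted p = 0.528), beside 28.4 ± 4.68 CPM in LPS. Gadd45a, a growth arrest gene, stood at 7.76 ± 2.46 CPM and 9.403 ± 4.102 CPM (log2 fold change 0.24 ± 0.19, adjusted p = 0.425).

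The death targets had 5 of 13 members that fell. The others did not pass the test. Among these, named after their values were seen, were Bax (log2 fold change -0.35), Pmaip1 (0.04), Bbc3 (0.13) and Tnfrsf23 (0.77, adjusted p = 0.035). Fas, the death receptor, stood at 62.3, 42.6, 67.5 and 65.3 CPM in LPS+ET against 35.2, 12.8, 32.4 and 28.5 CPM in LPS+ET+KU, at a log2 fold change of -1.18 ± 0.17 (adjusted p = 7.27e-04). Tnfrsf10b, the receptor of the death ligand TRAIL, stood at 101, 69.3, 106 and 72.01 CPM with etoposide alone and 66.3, 30.1, 58.9 and 39.1 with the inhibitor (log2 fold change -0.87 ± 0.14, adjusted p = 0.00149). Neither receptor overlapped between treatments. Perp, a membrane protein of p53-driven apoptosis, had a mean of 7.56 ± 4.54 CPM against 1.76 ± 0.558 (log2 fold change -1.96 ± 0.32, adjusted p = 0.00174), and Ddit4l, an inhibitor of mTORC1, 25.6 ± 11.3 against 8.32 ± 4.81 CPM (-1.70 ± 0.18, adjusted p = 7.44e-05). In the LPS+ET gradient of LUL16 Perp was at 1.72 CPM (11 counts) and Ddit4l at 8.76 CPM, and the groups of both genes overlapped through this gradient. Siva1, an apoptosis factor, was the remaining death target that fell, at -0.73, and was named, like Mdm4, after its value was seen. Of the repair and metabolic targets Aldh4a1, a mitochondrial enzyme of proline breakdown, fell by 1.07 on the log2 scale (adjusted p = 7.24e-04), Polk, a DNA polymerase that copies past lesions, by 0.76 (adjusted p = 0.00537) and Ephx1, an epoxide hydrolase, by 0.75 (adjusted p = 0.00857). With equal weight for each fraction the log2 fold change was -0.22 for Ephx1, -0.38 for Sesn2, -0.49 for Tnfrsf10b, -0.56 for Aldh4a1 and -0.68 for Ppm1d. Of the p53 genes that fell, Mdm2, Ppp1r13l, Zfp385a, Fas and Ccng1 were also called with equal weight, and the others were not.

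The 10 largest falls among well-expressed protein-coding genes were Cdh23, Cyp4f39, Gal, Cnga3, Bpifb4, Notch3, Cav2, Ppp1r13l, Ldhb and Serpinf1, and in LPS alone 9 of them averaged 2.85 CPM or less. Cdh23 (ENSMUSG00000012819, chromosome 10, 60302748 to 60696490), a cadherin of the inner ear, stood at 82.9, 71.1, 111 and 242 CPM in LPS+ET against 5.84, 4.31, 5.63 and 12.5 CPM in LPS+ET+KU, with 2.85 ± 1.55 CPM in LPS. The groups lay far apart (log2 fold change -4.12 ± 0.19, adjusted p = 5.78e-08), and its counted site lay in an intron, 68967 bases from the nearest annotated transcript end, so the name of the transcript is uncertain. Notch3, a receptor of the Notch family, stood at 25.6, 18.3, 18.3 and 26.8 CPM in LPS+ET against 4.13, 0.817, 2.05 and 4.15 CPM in LPS+ET+KU (log2 fold change -3.15 ± 0.25, adjusted p = 8.29e-06). Cyp4f39, a cytochrome P450, stood at 14.6, 3.6, 10.3 and 11.3 CPM with etoposide alone and 0.604, 0.409, 0.463 and 1.46 with the inhibitor (log2 fold change -3.68 ± 0.34, adjusted p = 2.78e-05). Neither overlapped, although the LPS+ET gradient of LUL16 was the lowest of its group for Cyp4f39. Gal, the neuropeptide galanin, stood at 17.1, 2.03, 20.2 and 21.3 CPM in LPS+ET against 1.41, 0.454, 1.26 and 1.54 CPM in LPS+ET+KU (log2 fold change -3.55 ± 0.30, adjusted p = 1.55e-05), and Cnga3, a cyclic nucleotide-gated channel, at 12.9, 2.504, 12.99 and 10.2 CPM with etoposide alone and 0.302, 0.318, 1.52 and 1.08 with the inhibitor (-3.49 ± 0.32, adjusted p = 2.78e-05). In these the same gradient was several times below the other 3 of its group. The log2 fold changes of the rest were -3.16 ± 0.41 for Bpifb4, -3.08 ± 0.36 for Cav2, a membrane protein of caveolae whose groups overlapped, -2.68 ± 0.32 for Ldhb, a lactate dehydrogenase subunit, and -2.46 ± 0.31 for Serpinf1, a secreted serpin. Cdh23, Cyp4f39, Notch3, Ppp1r13l, Ldhb and Serpinf1 were called also without the block, and 0 of the 10 promoters held a half-site match in the window searched.

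Genes of the interferon response were higher with the inhibitor. In the interferon response list 13 of 43 genes rose and 0 fell, with a median log2 fold change of 0.43 (0.50 with equal weight), and of the interferon-inducible GTPases 3 of 10 rose and 0 fell, with a median of 0.51 (0.70), where 2.77% of all genes rose. Of these 16 genes 4 were called without the block, Ifit1, Ifit2, Rsad2 and Gbp5, and with equal weight 14 genes of both lists were called. Leaving out the LPS+ET gradient of LUL15, LUL16, LUL17 and LUL18 in turn gave 7, 17, 8 and 7 rises, leaving out the LPS+ET+KU gradient 8, 20, 8 and 7, and leaving out the pool 7, 28, 6 and 6.

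Interferons act through transcription factors that bind the interferon-stimulated response element, and its core GAAANNGAA, or the same letters on the opposite strand, is in capitals in the promoter windows that follow, shown because many of the largest rises were of this family.
Cxcl10: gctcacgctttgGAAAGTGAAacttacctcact
Ifit1: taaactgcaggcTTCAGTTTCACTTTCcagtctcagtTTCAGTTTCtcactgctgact
Ifit3: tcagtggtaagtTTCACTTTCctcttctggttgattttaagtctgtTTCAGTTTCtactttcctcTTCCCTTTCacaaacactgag
Rsad2: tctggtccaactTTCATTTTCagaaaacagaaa
Gbp5: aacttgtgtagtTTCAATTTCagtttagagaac
Gbp7: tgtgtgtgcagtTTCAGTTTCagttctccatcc
These RefSeq windows of GRCm38.p6 lie at chr5:92349082-92349114 on the minus strand (Cxcl10), chr19:34640768-34640825 on the plus strand (Ifit1), chr19:34583362-34583447 on the plus strand (Ifit3), chr12:26456551-26456583 on the minus strand (Rsad2), chr3:142496758-142496790 on the plus strand (Gbp5) and chr3:142530272-142530304 on the plus strand (Gbp7). Ifit1 and Ifit3 had 3 matches each, and the first 2 of Ifit1 overlapped. The core stood in 9.76% of all promoters, in 8.77% of those of tested genes, in 23 of the 37 promoters found for the 53 tested genes of the interferon lists (62.2%), and in 7 of 12 of their members that rose. It stood in 4 of the 9 promoters found for the 10 largest rises and in 0 of the 10 largest falls.

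Ifit1 (ENSMUSG00000034459, chromosome 19, 34640871 to 34650009), which binds viral RNA that lacks the cap of host mRNA, stood at 69.9, 78.1, 79.1 and 60.1 CPM in LPS+ET against 467, 159, 439 and 376 CPM in LPS+ET+KU, with 80.9 ± 7.11 CPM in LPS. Every inhibitor gradient was above every LPS+ET gradient (log2 fold change 2.26 ± 0.24, adjusted p = 8.38e-05, and 0.00143 without the block). Rsad2, the antiviral enzyme viperin, stood at 15.6, 11.6, 20.3 and 15.5 CPM in LPS+ET against 67.1, 38.1, 94.9 and 76.2 CPM in LPS+ET+KU, beside 18.02 ± 2.46 in LPS (log2 fold change 2.10 ± 0.16, adjusted p = 8.29e-06). Ifit2 stood at 12.6, 9.08, 11.5 and 9.66 CPM with etoposide alone and 46.6, 22.1, 66.5 and 51.3 with the inhibitor, beside 29.2 ± 7.51 in LPS (log2 fold change 2.06 ± 0.18, adjusted p = 2.17e-05), and Ifit3 at 9.05, 6.73, 2.903 and 4.22 CPM with etoposide alone and 39.5, 15.9, 11.3 and 33.1 with the inhibitor, beside 27.9 ± 11.8 in LPS (2.10 ± 0.24, adjusted p = 1.38e-04). Both encode relatives of Ifit1, and neither overlapped between treatments. The other 9 members that rose, named after their values were seen, were I830012O16Rik (1.96), Oasl1 (1.82), Irf7 (1.29), Isg15 (1.08), Rtp4 (1.05), Cmpk2 (0.98), Stat2 (0.93), Herc6 (0.85) and Parp14 (0.61) on the log2 scale. Irf7 is the factor that amplifies type I interferon, Isg15 a ubiquitin-like modifier and Stat2 a part of the factor that reads the element above. Of the GTPases, which attack membranes around microbes, Gbp5 stood at 8.04, 8.61, 8.02 and 9.13 CPM with etoposide alone and 21.4, 16.2, 36.7 and 32.1 with the inhibitor (log2 fold change 1.61 ± 0.18, adjusted p = 1.27e-04), while Gbp7 went from 40.9 ± 20.2 to 80.04 ± 36.97 CPM (0.96 ± 0.19) and Gbp4 from 10.4 ± 1.25 to 18.4 ± 2.498 CPM (0.81 ± 0.14).

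The sensors and kinases upstream of interferon moved both ways: 2 of 21 rose and 2 fell, where 2.77% of all genes rose and 3.59% fell. The median log2 fold change of the list was 0.0018. Jak2, a kinase of cytokine receptors, rose from 54.1 ± 10.9 to 88.5 ± 16.4 CPM (log2 fold change 0.71 ± 0.14, adjusted p = 0.00409) and Irf5, a factor downstream of Toll-like receptors, from 78.2 ± 10.1 to 119 ± 12.8 CPM (0.61 ± 0.12, adjusted p = 0.00454). Ikbke and Tbk1, the related kinases that activate Irf3, fell from 15.5 ± 3.42 to 8.596 ± 2.54 CPM (-0.87 ± 0.19, adjusted p = 0.00769) and from 24.9 ± 9.09 to 15.4 ± 4.37 CPM (-0.67 ± 0.12, adjusted p = 0.00337). None of these 4 was called without the block.

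Among chemokines and their receptors 6 of 15 rose and 1 fell (3 to 7 and 0 to 1 with a gradient or pool left out), with a median log2 fold change of 0.44, and 3 were called without the block. Of all genes 2.77% rose and 3.59% fell. Cxcl10 (ENSMUSG00000034855, chromosome 5, 92346638 to 92348889), the ligand of Cxcr3 on T cells and induced by interferon, stood at 3.75, 3.76, 2.44 and 2.37 CPM in LPS+ET against 70.6, 10.9, 64.7 and 74.1 CPM in LPS+ET+KU, with 3.28 ± 0.399 CPM in LPS. It had the largest rise of all named genes (log2 fold change 4.07 ± 0.43, adjusted p = 8.25e-05, and 0.00143 without the block), and its inhibitor gradient of LUL16 was far below the other 3 yet above all LPS+ET gradients. Ccl5, a chemokine that attracts T cells, stood at 37.5, 59, 28.6 and 30.5 CPM in LPS+ET against 173, 156, 147 and 183 CPM in LPS+ET+KU (log2 fold change 2.13 ± 0.17, adjusted p = 9.99e-06). Ccrl2, a receptor that holds chemerin without signalling, stood at 29.02, 55.9, 37.5 and 30.7 CPM with etoposide alone and 221, 124, 222 and 171 with the inhibitor (log2 fold change 2.27 ± 0.24, adjusted p = 8.25e-05). Neither gene overlapped between treatments. Ccr7, the receptor that leads B cells towards T cell zones, stood at 55.6, 146, 53.4 and 61.03 CPM with etoposide alone and 174, 342, 202 and 189.6 with the inhibitor (log2 fold change 1.58 ± 0.21, adjusted p = 4.61e-04), with the highest LPS+ET value in LUL16. The sphingosine phosphate receptors S1pr1 (0.88) and S1pr4 (0.63) also rose and Gpr183, an oxysterol receptor, fell by 0.70, these 3 named after their values were seen.

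**Figure D3:**
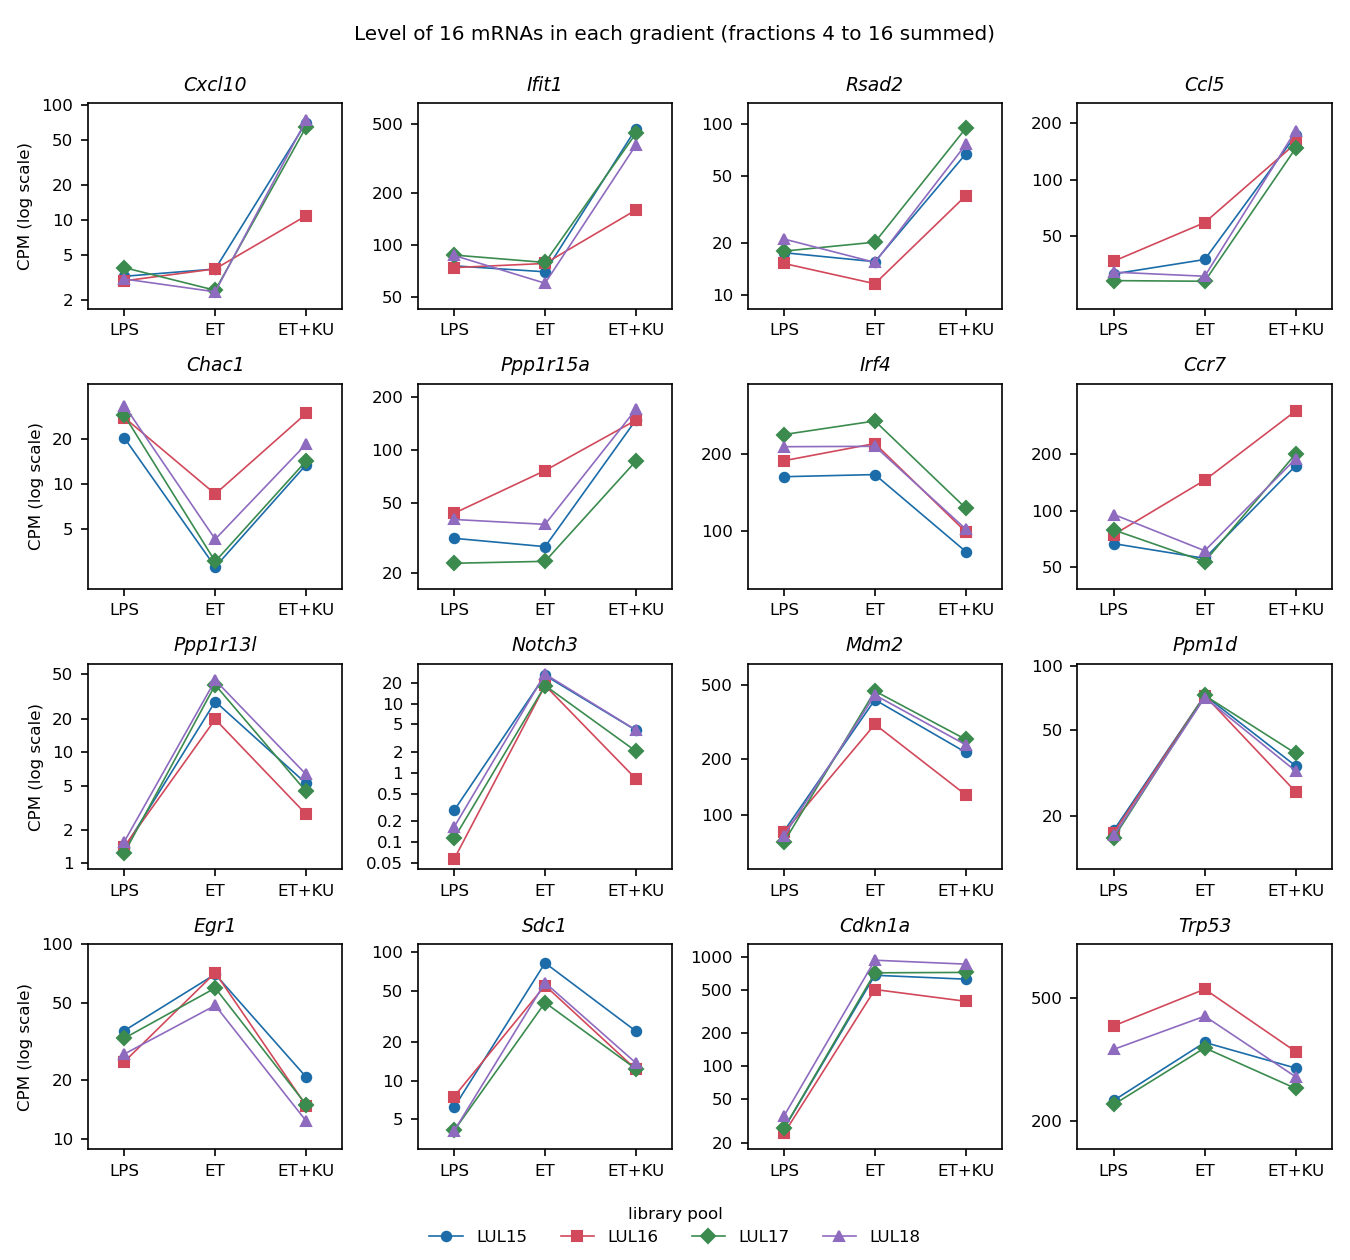
Level (CPM, log scale) of 16 mRNAs in each of the 12 gradients, with the pool given by symbol and colour and lines joining the gradients of 1 pool across LPS, LPS+ET (ET) and LPS+ET+KU (ET+KU). Cxcl10 and Ifit1 lie higher with the inhibitor in every pool, Mdm2 and Ppm1d lower in every pool.

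Neurl3, a ubiquitin ligase, was the only gene of the 10 largest rises in none of the lists, which were chosen with earlier results of these data known. It went from 24.6, 42.3, 30.2 and 36.4 CPM to 86.1, 194, 129 and 188 CPM without overlap (log2 fold change 2.13 ± 0.17, adjusted p = 8.29e-06). Of the NF-kB subunits and feedback genes 3 of 23 rose and 0 fell (0 to 6 and 0 to 1 with a gradient or pool left out), with a median of 0.18. Of all genes 2.77% rose and 3.59% fell. Cd83, a surface protein of activated B cells, went from 107 ± 6.16 to 213 ± 30.7 CPM (log2 fold change 0.99 ± 0.13, adjusted p = 2.92e-04, and 0.00558 without the block), Nfkbie, an inhibitor of NF-kB, from 17.1 ± 6.604 to 34.2 ± 15.9 CPM (0.99 ± 0.15) and Gadd45b, an NF-kB target that blocks apoptosis, from 118 ± 20.8 to 201 ± 34.6 CPM (0.78 ± 0.12). In LPS Cd83 stood at 276, 267, 232 and 255 CPM. The list of cytokines and TNF ligands had 1 of 17 members that rose, Il6, whose gradients overlapped and which was higher in 3 of 4 pools (3.901, 5.16, 4.66 and 4.65 CPM with etoposide alone, 17.4, 4.72, 15.4 and 15.2 CPM with the inhibitor, log2 fold change 1.46 ± 0.28, adjusted p = 0.00445).

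Genes of the integrated stress response were higher with the inhibitor. This response slows general initiation of translation when eIF2 is phosphorylated and raises translation of Atf4, which then switches on genes of amino acid supply and of stress-linked death. Of 28 members 10 rose and 0 fell, where 2.77% of all genes rose, with a median log2 fold change of 0.60 (0.73 with equal weight), while 0 of them were called without the block. Leaving out the LPS+ET gradient of LUL15, LUL16, LUL17 and LUL18 in turn gave 5, 16, 5 and 5 rises, leaving out the LPS+ET+KU gradient 7, 8, 6 and 5, and leaving out the pool 2, 20, 4 and 5. Chac1, an enzyme that breaks down glutathione, stood at 2.81, 8.61, 3.06 and 4.303 CPM in LPS+ET against 13.5, 29.7, 14.3 and 18.5 CPM in LPS+ET+KU (log2 fold change 2.08 ± 0.22, adjusted p = 8.08e-05, and 0.0126 without the block). Its level in LPS was 27.6 ± 5.42 CPM. Ppp1r15a, the subunit Gadd34 that directs a phosphatase to eIF2, stood at 28.2, 76.5, 23.2 and 37.8 CPM with etoposide alone and 149, 148, 86.8 and 171 with the inhibitor (log2 fold change 1.85 ± 0.20, adjusted p = 8.39e-05). Trib3, a pseudokinase, went from 8.34 ± 4.07 to 31.5 ± 21.7 CPM (1.87 ± 0.28), and Nupr1, a stress-induced chromatin protein, from 2.57 ± 2.42 to 9.92 ± 7.76 CPM (2.03 ± 0.35), the only one of these 4 whose gradients overlapped. The other 6, named after their values were seen, were Ddit3 (1.74), Atf4 (1.33), Atf5 (1.15), Pck2 (1.01), Mthfd2 (0.88) and Slc7a5 (0.80), of which Ddit3 encodes the death-linked factor Chop.

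ER chaperones and genes of the unfolded protein response had 4 of 26 members that fell and 0 that rose, where 3.59% of all genes fell and 2.77% rose. The falls numbered 0 to 8 when a gradient or pool was left out. The 4 were Txndc5 (-1.06 ± 0.22), Pdia3 (-0.88 ± 0.16), Pdia6 (-0.72 ± 0.16) and Canx (-0.65 ± 0.14), of which the first 3 form disulphide bonds in secreted proteins and the last holds glycoproteins. The median of this list was -0.23. With equal weight the median was -0.06, with 0 members called lower and 1 called higher. Without the block 0 were called. Of 17 heat shock proteins 2 fell (0 to 4 with a gradient or pool left out), Hspa1a, which has a near-identical copy, from 9.99 ± 2.18 to 4.41 ± 1.44 CPM (-1.19 ± 0.22) and Hsp90aa1 from 7.27 ± 1.704 to 3.24 ± 0.878 CPM (-1.16 ± 0.23), and 0 were called without the block. With equal weight 0 were called. Hsp90aa1 had 43 to 114 counts per gradient in LPS+ET and 30 to 100 in LPS+ET+KU. In the list of Nrf2 and aryl hydrocarbon receptor targets 1 of 17 rose and 1 fell: Tiparp by 0.88 and Nqo1, a quinone reductase, with 29.5 ± 3.36 CPM against 12.9 ± 4.06 CPM (log2 fold change -1.23 ± 0.16, adjusted p = 3.03e-04).

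Immediate early genes, which respond to signals without new protein synthesis, split. Of 30 members 7 rose and 2 fell, where 2.77% of all genes rose and 3.59% fell, with a median log2 fold change of 0.40. The rises numbered 13 without the LPS+ET gradient of LUL16 and 8 without its LPS+ET+KU gradient, and 2 or 3 without each other gradient. They numbered 16 without the pool LUL16 and 1 or 2 without each other pool. Both falls were of the Egr family of zinc finger factors. Egr1 stood at 70.2, 71.5, 59.7 and 48.6 CPM in LPS+ET against 20.8, 14.8, 15.02 and 12.4 CPM in LPS+ET+KU, beside 30.3 ± 5.08 CPM in LPS (log2 fold change -1.998 ± 0.14, adjusted p = 5.88e-06, and 8.70e-04 without the block). Egr2, at 12 to 28 counts per gradient in LPS+ET against 3 to 11 in LPS+ET+KU, had a log2 fold change of -2.03 ± 0.36 (adjusted p = 0.00284). Dusp4, a phosphatase that switches off MAP kinases, moved the other way, from 40.9, 58.4, 41.8 and 41.2 CPM to 126, 99.2, 157 and 138 CPM (log2 fold change 1.52 ± 0.17, adjusted p = 1.17e-04, and 0.00143 without the block), with its counted site 2058 bases past the annotated end. Atf3, a stress-induced factor, stood at 46.8, 48.7, 44.1 and 43.1 CPM with etoposide alone and 103, 79.6, 96.5 and 104 with the inhibitor (log2 fold change 1.06 ± 0.13, adjusted p = 1.95e-04). All 3 genes called without the block, Egr1, Dusp4 and Atf3, were apart in all gradients. The other 5 rises, named after their values were seen, were Per1 (1.06), Dusp5 (1.05), Fosl2 (0.94), Ier2 (0.71) and Klf6 (0.67).

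Genes linked to FOXO factors, which are active when PI3K signalling is low, had 6 of 22 members that rose and 0 that fell, where 2.77% of all genes rose, with a median log2 fold change of 0.38 (0.39 with equal weight), and 0 were called without the block. The rises numbered 1 without the pool LUL15 or LUL17, 2 without LUL18 and 9 without LUL16, where 3 members also fell. Without single gradients they numbered 3 to 7. Pik3ip1, an inhibitor of PI3K, stood at 7.65, 12.4, 5.96 and 5.796 CPM in LPS+ET against 17.3, 73.2, 17.3 and 16.5 CPM in LPS+ET+KU (log2 fold change 1.78 ± 0.29, adjusted p = 0.00174). Tsc22d3, the glucocorticoid-induced leucine zipper protein, stood at 5.77, 12.2, 7.72 and 5.97 CPM with etoposide alone and 15.7, 48.9, 20.6 and 17.8 with the inhibitor (log2 fold change 1.64 ± 0.22, adjusted p = 4.02e-04). Neither overlapped, and the highest value of both was the inhibitor gradient of LUL16. Cdkn1b, the cell cycle inhibitor p27, went from 73.2 ± 16.2 to 148 ± 60.4 CPM (0.97 ± 0.18) with overlap, and Ccr7 and S1pr1 are given above.

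Regulators of B cell and plasma cell identity had 1 of 25 members that rose and 2 that fell, where 2.77% of all genes rose and 3.59% fell. Irf4, the factor that drives plasma cell formation, stood at 167, 221, 270.3 and 215 CPM with etoposide alone and 83.2, 99.4, 123 and 102 with the inhibitor (log2 fold change -1.09 ± 0.12, adjusted p = 8.38e-05). Sdc1, the plasma cell marker CD138, stood at 82.7, 55.1, 40.6 and 57.96 CPM in LPS+ET against 24.2, 12.2, 12.3 and 13.7 CPM in LPS+ET+KU, with 5.46 ± 1.69 CPM in LPS (log2 fold change -1.93 ± 0.18, adjusted p = 2.78e-05, and 0.0057 without the block). Irf4 and Sdc1 were lower in every inhibitor gradient than in every LPS+ET gradient. Of genes of MHC class I and II presentation 3 of 27 rose, H2-Q4 (1.36 ± 0.31), H2-Ob (1.16 ± 0.15) and H2-DMa (1.02 ± 0.15), where H2-DMa loads peptides on class II and H2-Ob restrains that step, and H2-Q4 has near-identical relatives that can share reads. In this list 0 genes were called without the block and 1 with equal weight, and the rises numbered 0 to 6 with a gradient or pool left out. In LPS H2-Ob stood at 154, 187, 113 and 185 CPM, and H2-DMa at 180, 264, 161 and 216 CPM. Of 10 B cell markers Cd72, an inhibitory coreceptor, rose by 0.69.

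Of 22 DNA damage kinases and checkpoint genes 1 rose and 1 fell, where 6.36% of all genes were called: H2afx, the histone that ATM phosphorylates at breaks, from 29.9 ± 13.3 to 57.6 ± 22.3 CPM (log2 fold change 0.98 ± 0.20, adjusted p = 0.00534), and Wee1, which holds cells before mitosis, from 21.99 ± 2.21 to 14.2 ± 1.9 CPM (-0.63 ± 0.13, adjusted p = 0.00677). Atm itself, whose counted site lay 2015 bases past the annotated end, stood at 35.3, 35.7, 24.98 and 29.2 CPM in LPS+ET against 44.9, 57.03, 31.7 and 42.6 CPM in LPS+ET+KU and did not pass the test (log2 fold change 0.49 ± 0.19, adjusted p = 0.102). The inhibitor acts on the kinase and not on its mRNA, so this level does not check the treatment. Of 27 genes of double-strand break repair 1 fell and 0 rose. Of 24 BCL2 family members and caspases 1 fell and 1 rose, Htra2 (0.58 ± 0.13).

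Some mRNAs of G2 and M phase were lower. Of 55 G2 and M phase genes 7 fell and 0 rose, with a median log2 fold change of -0.40 (-0.27 with equal weight). Of 47 S phase genes 2 fell and 0 rose, with a median of -0.26 (-0.04). Of all genes 3.59% fell, and the S phase count stood near this background. None of the 9 genes of both lists was called without the block. For the G2 and M list, leaving out the LPS+ET gradient of LUL15, LUL16, LUL17 and LUL18 in turn gave 0, 12, 0 and 0 falls, leaving out the LPS+ET+KU gradient 0, 20, 0 and 0, and leaving out the pool 0, 34, 0 and 0. For the S phase list the falls ran from 0 without the pool LUL15, LUL17 or LUL18 to 21 without LUL16. Cdc20, the activator that starts anaphase, stood at 55.8, 16.4, 55.5 and 51.8 CPM in LPS+ET against 17.8, 11.8, 22.4 and 15.5 CPM in LPS+ET+KU (log2 fold change -1.38 ± 0.25, adjusted p = 0.00298), and overlapped through LUL16. Aurkb, a mitotic kinase, went from 53.8 ± 9.46 to 29.7 ± 8.04 CPM (-0.87 ± 0.16), Gtse1, which binds p53 in G2, from 70.1 ± 13.01 to 37.01 ± 10.3 CPM (-0.92 ± 0.20) and Kif20a, a motor of cytokinesis, from 16.3 ± 4.89 to 9.07 ± 0.881 CPM (-0.82 ± 0.16). Ccnf, Arhgap11a and Ckap2, named after their values were seen, completed the 7. In the S phase list Fen1, the flap endonuclease, stood at 94.7, 77, 95.3 and 80.4 CPM with etoposide alone and 50.8, 51.2, 51.4 and 35.2 with the inhibitor (-0.89 ± 0.13), and Rrm2, a subunit of ribonucleotide reductase, at 449, 329.6, 337 and 310.3 CPM with etoposide alone and 252, 245, 148 and 152 with the inhibitor (-0.88 ± 0.15).

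The remaining lists held 1 call or 0. Dkc1, a pseudouridine synthase, fell among 29 Myc and ribosome biogenesis genes (-0.73 ± 0.14), G3bp1, a stress granule protein, among 19 RNA granule and AU-rich element proteins (-0.59 ± 0.13) and Abca1, a cholesterol exporter, among 30 genes of cholesterol synthesis and transport (-0.93 ± 0.20), while Mxi1, a Myc antagonist, rose among 27 genes of glycolysis and Hif1a targets (0.92 ± 0.15). Shares of this size stand near the background of 6.36%. Markers of other cell types were measured in the same gradients. T cell markers summed to at most 11.4 CPM and NK cell markers to at most 1.91 CPM in any compared gradient, and none of their tested members was called (Cd28 0.83 ± 0.27, Lat 0.05 ± 0.43, Prf1 -0.54 ± 0.50). Myeloid markers summed to 139 to 287 CPM in LPS+ET against 109.6 to 228 CPM in LPS+ET+KU, with 1 of 11 higher, Cd14, from 2.26 ± 1.27 to 8.46 ± 5.51 CPM (1.87 ± 0.28), and a list median of -0.25. Erythroid and platelet markers lay between 40.8 and 93.9 CPM and between 28.3 and 175 CPM, with 0 of 3 called (Hbb-b2 0.21 ± 0.30, Itga2b -0.66 ± 0.25). The part of such cells in the results was not tested.

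**Figure D4:**
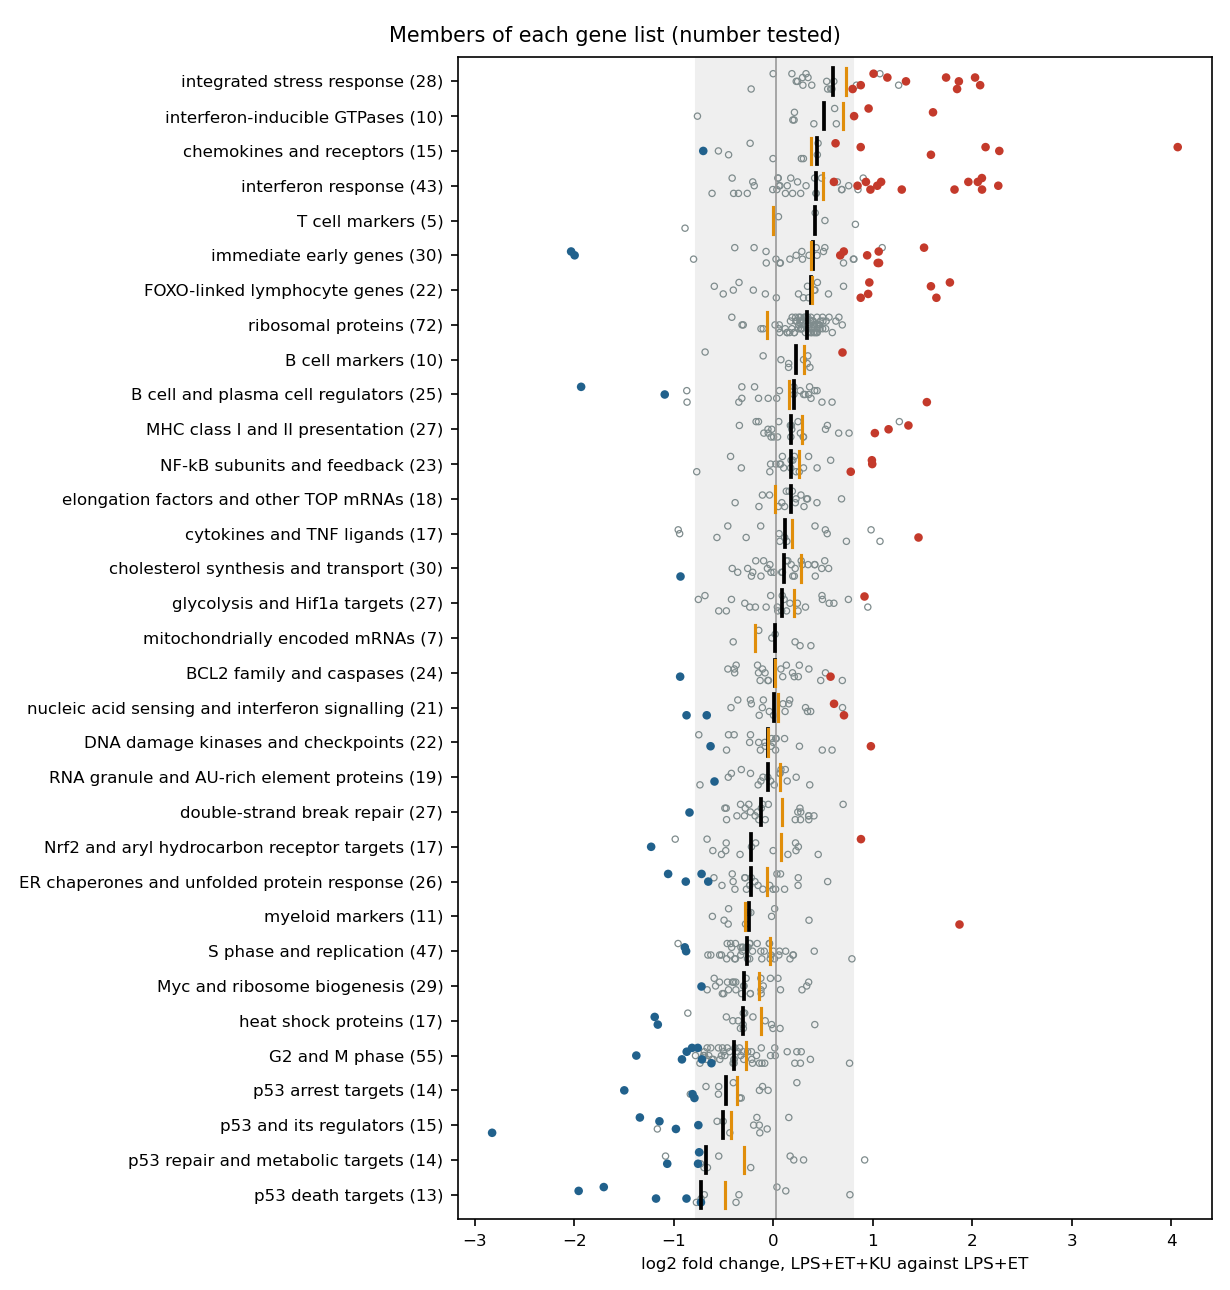
Log2 fold change of LPS+ET+KU over LPS+ET for each tested member of each gene list, filled where called. Black bars are medians of the summed counts, orange bars medians with equal weight for each fraction, and the grey band spans the 5th to 95th percentile of all genes (-0.77 to 0.80). The medians of the p53 lists lie left of 0 and those of the interferon and integrated stress response lists right of it.

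The direction of the ribosomal protein list changed with the weight given to the fractions. With summed counts 67 of 72 had a positive log2 fold change and the median was 0.34, with 0 called. Without the LPS+ET gradient of LUL16 30 of them were called higher (median 0.53), and without the whole pool LUL16 44 (median 0.57). Each other leave-out gave 0, with medians from 0.23 to 0.49. With equal weight the median was -0.06, and within monosomes, light and heavy polysomes it was -0.16, -0.29 and -0.20, so the direction of the list turned with the weighting. Rps20 stood at 20530, 31672, 18297 and 15366 CPM in LPS+ET against 32380, 23852, 28548 and 25614 CPM in LPS+ET+KU (log2 fold change 0.39 ± 0.21, adjusted p = 0.236), and Rpl4 had 0.25 ± 0.18. The other mRNAs with a terminal oligopyrimidine start, among them Eef2 (0.31 ± 0.18) and Eef1b2 (0.34 ± 0.16), had a median of 0.18, or 0.02 with equal weight, with 0 of 18 called. Leaving out a gradient or pool gave 0 to 6 called higher. The 7 mRNAs encoded by mitochondria, which mitochondrial ribosomes translate, had 0 calls (mt-Nd4 -0.15 ± 0.44, mt-Nd1 -0.01 ± 0.44). In the LPS+ET+KU gradient of LUL16 mt-Nd1 stood at 1230 CPM and mt-Nd4 at 1274 CPM. The other gradients of that group had 10752 to 18893 CPM and 14704 to 23390 CPM. Without that LUL16 gradient the log2 fold change was 0.53 for mt-Nd1 and 0.34 for mt-Nd4. Without the LPS+ET gradient of LUL16 1 of the 7 was called higher, and without the pool LUL16 5 were, among them mt-Nd1 at 0.52 (adjusted p = 0.00218).

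Within each class of fractions the comparison was repeated. Monosomes gave 502 calls among 8932 genes (5.62%; 223 higher, 2.50%, and 279 lower, 3.12%), light polysomes 531 among 9922 (5.35%; 191 higher, 1.93%, and 340 lower, 3.43%) and heavy polysomes 372 among 11368 (3.27%; 193 higher, 1.70%, and 179 lower, 1.57%). The classes are parts of the sum and not independent of it. Of the 660 genes called in the sum and tested in every class, 632 had the same sign in all classes and 103 were called in each. Cxcl10 had log2 fold changes of 3.67 in monosomes, 3.87 in light and 4.38 in heavy polysomes, and Ifit1 had 2.37, 2.11 and 2.09. Among the p53 genes Ppp1r13l had -1.68, -2.52 and -3.09, Ppm1d -0.98, -1.03 and -1.21, and Mdm2 -0.98, -0.98 and -1.06. All of these kept 1 direction along the gradient. Cdh23 varied between classes, at -6.67, -1.28 and -5.47. The difference between classes was not tested.

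**Figure D5:**
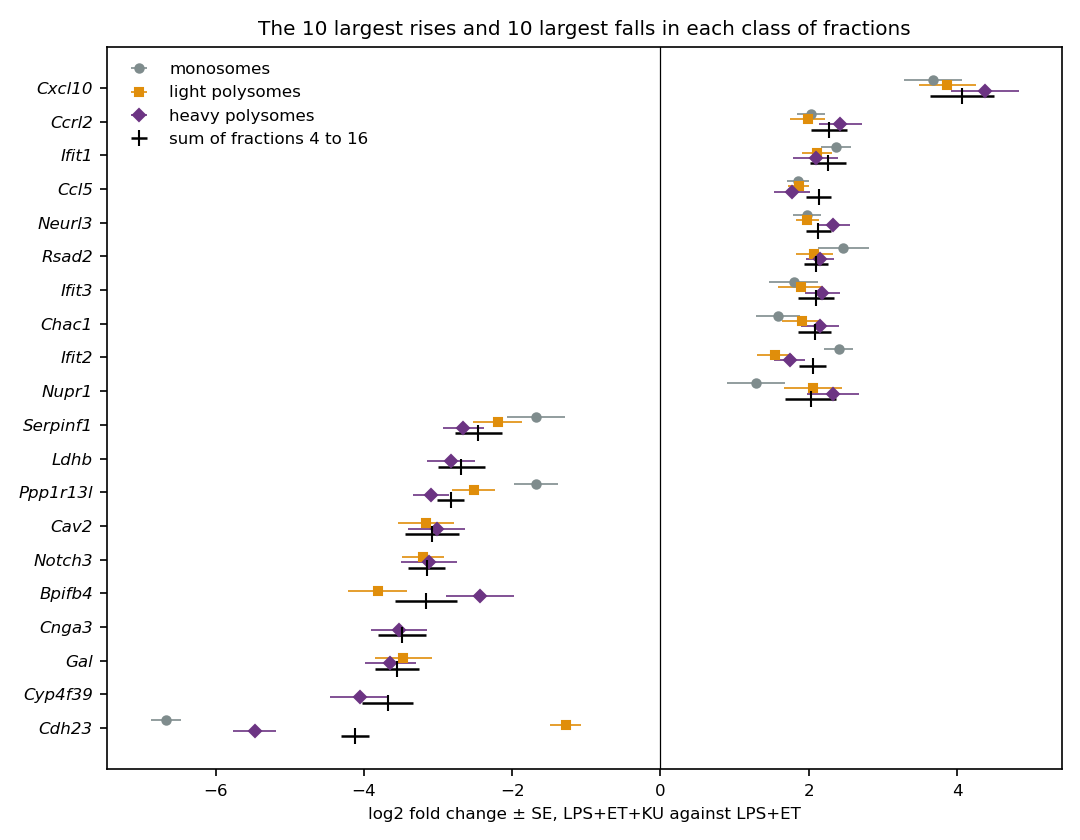
Log2 fold change of LPS+ET+KU over LPS+ET (horizontal axis) of the genes with the 10 largest rises and 10 largest falls, in monosomes, light polysomes and heavy polysomes, with standard errors as bars, beside the sum of fractions as black vertical marks, and with no symbol where a class had too few counts for the gene to be tested. Cdh23 lies at -6.67 in monosomes and -1.28 in light polysomes.

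The mRNAs that the study follows at the level of polysomes were looked up whatever their values. Trp53, the p53 gene (ENSMUSG00000059552, chromosome 11, 69580359 to 69591873), stood at 359.9, 536, 345 and 438 CPM in LPS+ET against 297, 336, 255 and 278 CPM in LPS+ET+KU, with 302 ± 87.95 CPM in LPS. All inhibitor gradients were below all LPS+ET gradients, but the difference did not pass the threshold (log2 fold change -0.50 ± 0.14, adjusted p = 0.0253), and with equal weight for each fraction it was 0.07. In monosomes, light and heavy polysomes the log2 fold change of Trp53 was 0.17, -0.14 and -0.54. Hif1a, the hypoxia-inducible factor, went from 309.9 ± 72.6 to 225 ± 64.7 CPM (log2 fold change -0.47 ± 0.12, adjusted p = 0.018), and the value with equal weight was 0.03. H2-K1, an MHC class I heavy chain with near-identical relatives, stood at 2865 ± 252 and 2949 ± 946 CPM, and its log2 fold change was 0.0024 ± 0.17 (adjusted p = 0.995), or 0.40 with equal weight. The RNA-binding proteins of stress granules Tia1 and Tial1 had 0.08 ± 0.12 (adjusted p = 0.715) and 0.0095 ± 0.13 (adjusted p = 0.971), from 21.01 ± 3.903 to 22.2 ± 4.72 CPM and from 51.4 ± 6.24 to 52.5 ± 13.8 CPM.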

How the data were processed

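The deposited table held counts per gene and fraction, which the authors made from 3′ end reads: 5′ barcodes removed PCR duplicates, A tracts were trimmed, and reads were mapped to GRCm38/mm10 and tallied at poly(A) sites. They were not normalized. The submitters' processing notes name TopHat2 2.0.12, HTSeq and DESeq2 1.6.3. Columns were assigned to gradients by the treatment and LUL tag in their names, and fractions 4 to 16 of a gradient were added up. edgeR 4.0.16 (R 4.3.3; TMM, its expression filter, quasi-likelihood F-test) was fitted to all 12 gradients with pool and treatment as terms, with a two-sided test and a limit of 0.01 on p after Benjamini-Hochberg adjustment over all genes tested. The pool was used as a block because the comparison was set as paired by LUL tag, while the study states no block. Gradients of the same pool deviated together: r was 0.305 to 0.799 in 12 of 12 pairs, and -0.628 to 0.284 between different pools, across genes. Deviations were taken from the mean of each treatment, so a shared pool effect by itself lowers r between different pools. The tags stand in the column names, and no source says what a pool shared. The p-values rest on the spread left among the 12 gradients after pool and treatment were fitted. CPM are scaled by TMM. Equal weight means that each fraction library was scaled to CPM and averaged, then tested as log2(CPM + 1) with limma 3.58.1. The other alternatives were DESeq2 1.42.0, its size factors, other filters and leaving out gradients. Values after ± are SDs over gradients or, for log2 fold changes, standard errors of the fit. Gene lists were described by counts and medians without a set test. The members and lists were chosen with earlier results of these data known. Named genes were (a) the 10 largest rises and falls among called protein-coding genes with 1 sign in all 4 pools and 5 CPM or more in either group, (b) up to 4 called members of each list by size, or its 2 most abundant, and (c) 9 fixed genes. Positions are those of the table, moved to 1-based, and 87 of the 104 named genes had their counted site 100 bases or less from a transcript end of GENCODE M21. The fraction 17 library (777 counts) was not used. A few genes are not reported here by name or value, and counts over lists and over the rule's genes include them.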

Additional observations from a re-analysis of the deposited data

Results flagged for a closer look

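In 22 of 208 groups of 4 gradients looked at, 1 gradient stood outside Dixon's 95% limit, where chance alone flags about 1 in 20 groups. Most of them concerned pool LUL16. In LPS+ET the gradient of LUL16 was low for Gal (2.03 CPM), Cnga3 (2.50), Ldhb (3.91), Ddit4l (8.76) and Cdc20 (16.4), and high for Ccr7 (146), Dusp4 (58.4) and Eef2 (8343), and it had the flagged monosome share of 29%. In LPS+ET+KU the gradient of LUL16 was low for Cxcl10 (10.9 CPM), Ikbke (4.81), Il6 (4.72) and mt-Nd4 (1274), and high for Gadd45b (253), Pik3ip1 (73.2) and Lat (4.90). The remaining flags were LPS+ET of LUL18 for Ppm1d (71.1) and Canx (459), LPS+ET of LUL15 for Gbp7 (71.2), and in LPS+ET+KU LUL18 for Fen1 (35.2) and LUL15 for Canx (489) and Sdc1 (24.2).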

How the results depend on the processing

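No alternative turned the direction of a called named gene: of 1693 values of these 85 genes 1086 stayed past the threshold and 607 did not. These genes were chosen by their call in the same data, and 84 of the 85 had 1 sign in all 4 pools. A kept direction was largely given by this choice. The count of 811 calls became 58 without the replicate block that pairs gradients by pool, 0 with the 8 compared gradients and no replicate block (1627 at an unadjusted p under 0.05), 1353 with DESeq2, 315 with equal weight per fraction and 1949 at an adjusted p under 0.05. It was 894 with the 8 gradients and the block, 794 with DESeq2 size factors, 1093 without a filter and 713 with at least 50 counts in 4 gradients. Leaving out gradients or pools gave 86 to 2874. Among 19 named genes that were not called, 36 of 376 values changed sign and 9 others passed the threshold: Trp53 and Hif1a with DESeq2, Rps20 without the LPS+ET gradient of LUL16, and Rps20, Rpl4, Eef2, Eef1b2, Trp53 and Hif1a without the pool LUL16, where mt-Nd1 was also called after changing sign. With equal weight the log2 fold change was -0.16 for Rps20, -0.067 for Rpl4, 0.21 for Prf1, 0.069 for Trp53, 0.026 for Hif1a and -0.086 for Lat. Without the block, in 12 or 8 gradients, it was 0.061 for mt-Nd4 and 0.26 for mt-Nd1, which stood at 7.9e-04 under the stricter filter. DESeq2 gave -0.024 for Lat. H2-K1 had -0.0048 in 8 gradients with the block, and -0.012 with DESeq2 and with its size factors, and Tial1 -0.0044 and -0.0051. With gradients or pools left out the values ran from -0.37 to 0.34 for mt-Nd4, -0.35 to 0.53 for mt-Nd1, -0.58 to 0.36 for Lat, -0.27 to 0.48 for Hbb-b2, -0.14 to 0.14 for H2-K1 and -0.096 to 0.069 for Tial1. The cause was not tested. Depth limits genes with few counts, such as Egr2.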
